A study of Rattus norvegicus with 105 samples.

Results

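Gastrocnemius muscle that had carried nickel pellets for 6 months was compared with muscle that had carried them for 3 months. The comparison takes the 3 nickel arrays of each month, 6 arrays in 2 of the 35 groups of 3 in the series, and asks what became of the nickel response between the months. The same step in tantalum muscle, also 3 arrays at each month, is the background. The animals were male Sprague-Dawley rats, about 30 days old on arrival and kept for at least 2 weeks before surgery. Each rat carried 4 pellets of 1 metal, 2 in each limb, and 8 rats were assigned to a metal and month. All groups had surgery and an embedded object: tantalum, a metal of low reactivity, stood in for sham surgery. Each array held RNA pooled from 2 to 3 rats, so the spread below is between pools, not single animals. Rats at 6 months were also 3 months older than those at 3 months, which the tantalum step shares. Levels are log2 values after robust multi-array averaging (RMA, a background-corrected and normalized probe summary), and a difference of 1 is 2-fold. The series holds no nickel arrays at 12 months.

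Embedded nickel corrodes slowly and releases ions. Cells meet metal ions with metallothioneins, small cysteine-rich proteins that bind zinc and other metals and whose genes are switched on by the zinc-sensing factor MTF-1. They meet oxidative stress through NRF2, a factor that controls antioxidant and detoxifying enzymes such as heme oxygenase. Nickel ions can also block the oxygen-sensing hydroxylases that keep hypoxia-inducible factor (HIF) low. Around an implant, macrophages gather, fuse and call in other leukocytes, fibroblasts lay down a capsule, and damaged fibres regenerate by passing through an embryonic program of contractile genes.

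Most of the large changes from 3 to 6 months in nickel muscle were falls. Of 22954 probe sets, 2261 (9.85%) passed at a limma adjusted p below 0.05, 1383 lower (6.03%) and 878 higher (3.83%) at 6 months. By at least 2-fold, 346 were lower and 13 higher. The median over all probe sets was 0.03. In tantalum muscle the same step changed 334 probe sets (1.46%), 205 lower (0.893%) and 129 higher (0.562%), with 16 lower and 9 higher by at least 2-fold. The difference between the nickel and the tantalum step was itself called for 389 probe sets (1.69%), 370 of them more negative in nickel (1.61%) and 19 more positive (0.0828%). Without nickel 3-month replicate 2 or 1 the nickel step kept 1419 or 1488 calls. The difference between steps had 224 or 252 calls without nickel 3-month replicate 1 or 2, and 256 without nickel 6-month replicate 1. The tantalum step fell to between 43 and 248 calls when single tantalum arrays were left out, and each of its 10 named genes lost its call under at least 1 alternative. Of 118 nickel-step results named by rule, which take at most 6 members of a gene list, 92 passed in every alternative that tested them. The run without the dimmest probe sets held 107 of the 118, and Slc11a1, Il7r and Slc7a11 were among those left out. The 26 that lost their call in at least 1 were Mmp12, Cst7, Pfkfb3, Gadd45g, Me1, Gclc, Cp, Klrk1, Cd4, Cd8b, Sfrp1, Chrnd, Trim63, Tsc22d3, Mstn, Nupr1, Canx, Mcm3, Ccna2, Bmal1, Bhlhe40, S100a9, Csf3r, Tie1, Cfd and Thbs4.

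The metallothionein and zinc transport group split sharply. Of 12 measured members, 4 fell and 0 rose, and the same 4 also fell more than in tantalum: the metallothioneins Mt1 and Mt2A and the zinc importers Slc39a8 and Slc39a14. The group's median, -0.12, stayed near that of all probe sets. Mt3, the metallothionein known from brain, was not called, at a difference of 0.06. The RefSeq promoters of these 3 neighbouring genes (GRCr8, the 250 bases before the start) are shown because the response element for MTF-1 is part of the known control of Mt1 and Mt2A. Capitals mark the metal response element core, TGCACNC or TGCGCNC on either strand, with overlapping matches counted once. The Mt1 promoter (chr19:10832976-10833225, minus strand) held 6, that of Mt2A (chr19:10838709-10838958, minus strand) 4 and that of Mt3 (chr19:10856081-10856330, minus strand) 3.
Mt1: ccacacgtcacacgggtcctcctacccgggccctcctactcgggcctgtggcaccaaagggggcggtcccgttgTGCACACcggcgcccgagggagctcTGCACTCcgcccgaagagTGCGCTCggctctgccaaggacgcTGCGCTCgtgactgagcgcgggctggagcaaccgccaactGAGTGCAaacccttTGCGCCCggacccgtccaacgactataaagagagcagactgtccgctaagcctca
Mt2A: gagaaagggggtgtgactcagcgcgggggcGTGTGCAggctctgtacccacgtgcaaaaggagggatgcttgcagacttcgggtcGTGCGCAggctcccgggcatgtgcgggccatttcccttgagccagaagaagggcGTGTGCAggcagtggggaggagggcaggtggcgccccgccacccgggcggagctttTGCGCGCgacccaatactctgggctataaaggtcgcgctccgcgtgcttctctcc
Mt3: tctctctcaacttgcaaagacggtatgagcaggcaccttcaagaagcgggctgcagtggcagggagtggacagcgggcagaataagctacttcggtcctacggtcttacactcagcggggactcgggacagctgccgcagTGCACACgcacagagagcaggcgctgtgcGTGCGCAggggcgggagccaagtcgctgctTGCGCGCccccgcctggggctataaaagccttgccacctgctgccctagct
Of the 12 measured genes, 10 matched a promoter entry, with 11 promoters in all, and 9 of the 11 (81.8%) held the core, against 6883 of all 33469 promoters (20.6%). Mt3, Mtf1, Slc30a1, Slc30a2, Slc30a4, Slc30a5 and Slc39a1 held matches without a called change. Slc39a8 fell with 0 matches in this window, and Slc39a14, which also fell, had no promoter entry. A match describes the letters of the window, not a site in use.

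Mt1 stood at 9.89, 11.16 and 9.98 in the 3 nickel arrays at 3 months and at 7.23, 7.23 and 7.53 at 6 months. The months did not overlap, and replicate 2 was the highest array at 3 months. The difference was -3.01 ± 0.24 (SE, n = 3 and 3), 8.06-fold lower, with a limma adjusted p of 1.36e-15. Tantalum arrays showed no such step, at 7.41, 7.23 and 7.10 and then 7.41, 7.27 and 7.03, so the steps differed by -3.00 (limma adjusted p = 1.12e-08). Mt2A went from 11.24, 12.13 and 11.34 to 9.60, 9.95 and 10.11, 3.21-fold lower (limma adjusted p = 8.75e-08), again with replicate 2 highest and no overlap. Slc39a8, which takes up zinc and manganese, went from 7.19, 7.45 and 7.05 to 5.66, 5.71 and 5.85, a difference of -1.49 ± 0.22. The months lay apart, while the tantalum step was 0.45 and uncalled, and the gap between the steps was -1.93 (limma adjusted p = 2.28e-05). Slc39a14 fell less, by 0.62 on the log2 scale.

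**Figure D1:**
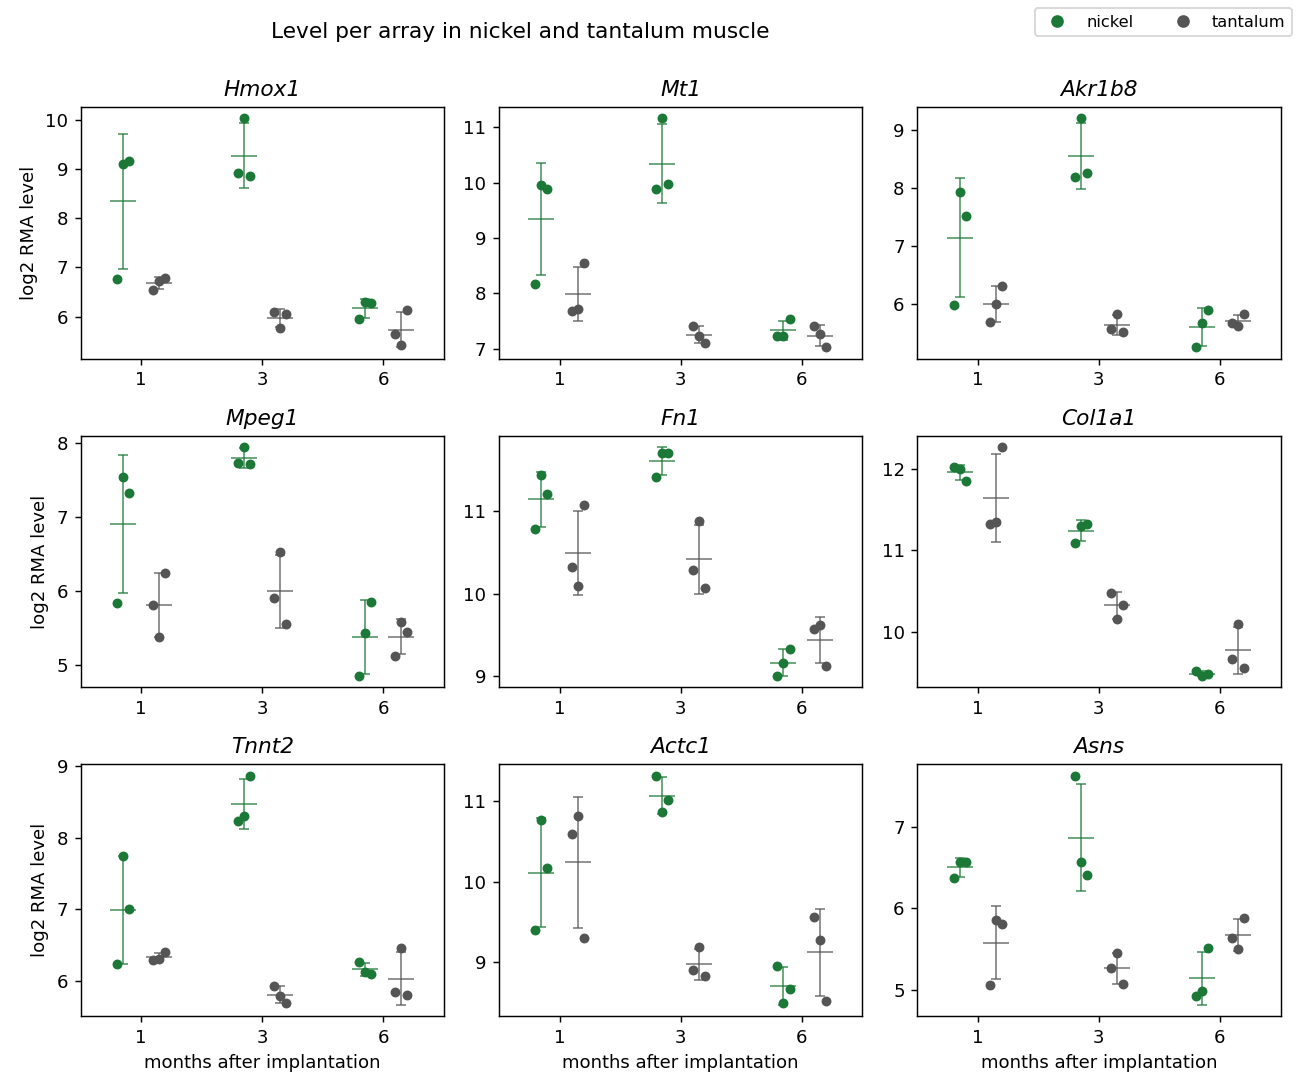
Log2 RMA level (y axis) of 9 genes in each nickel (green) and tantalum (grey) array at 1, 3 and 6 months (x axis); points are arrays, and bars give the mean and SD of 3 arrays. Nickel arrays lay above tantalum arrays at 3 months for all 9 genes, and the 3-month nickel arrays of Hmox1 were between 8.87 and 10.03 against 5.95 to 6.29 at 6 months.

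Among NRF2 targets, 5 of 19 measured members fell and 1 rose, with a list median of -0.19. Hmox1, which breaks down heme, held 8.91, 10.03 and 8.87 at 3 months and 5.95, 6.29 and 6.27 at 6 months in nickel. All 3-month arrays lay above all 6-month arrays. It fell by 3.10 ± 0.30 on the log2 scale, 8.57-fold (limma adjusted p = 1.06e-12), against -0.24 in tantalum, and the difference between steps was -2.86 (limma adjusted p = 5.27e-06). Akr1b8, an aldo-keto reductase that clears reactive aldehydes, went from 8.20, 9.20 and 8.25 to 5.26, 5.68 and 5.91. Replicate 2 was again the highest at 3 months and no arrays overlapped between months. Its step was -2.93 ± 0.32 (7.64-fold, limma adjusted p = 4.37e-11), with 0.07 in tantalum and a difference between steps of -3.01. Slc7a11, the cystine importer, fell by 1.15, the pentose phosphate enzyme Tkt by 0.64 and Gclc, the catalytic subunit for glutathione synthesis, by 0.43. For these 3 the difference from the tantalum step was not called. Me1, which makes NADPH, rose by 0.36 ± 0.11, and Nqo1, a quinone reductase often used to read NRF2 activity, was uncalled at -0.23 ± 0.18. The fall was uneven within the list, with Hmox1 and Akr1b8 far ahead of the other members.

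The antioxidant response element core TGACNNNGC, searched on both strands of the same window, was in 6 of 19 NRF2-target promoters (31.6%), from 17 matched genes, and in 3373 of all promoters (10.1%). Of the members that fell, Akr1b8, Slc7a11, Tkt and Gclc held 0 matches, while Me1, which rose, held 1. Hmox1, which also fell, had no promoter entry and was not searched. These letters can lie outside the window.

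Of 16 iron handling genes 4 fell and 0 rose, with a median of -0.18. Slc11a1, a transporter that moves metal ions out of phagosomes, went from 6.78, 7.88 and 6.60 to 4.83, 4.84 and 4.56, 5.07-fold lower (limma adjusted p = 1.2e-09). The months were far apart, and the step was also larger than the -0.75 of tantalum (difference -1.59 ± 0.40, limma adjusted p = 0.016). The iron exporter Slc40a1 fell by 1.29 ± 0.21, while its tantalum step was +0.42 and uncalled, which gave a difference between steps of -1.71. The ferroxidase Cp fell by 0.71, with a difference between steps of -1.13. Ftl1, the ferritin light chain, fell by 1.27, but tantalum gave -0.77 and the steps were not called as different.

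Of 23 macrophage genes measured, 22 fell and 0 rose, with a median of -1.38. For 21 of them the 3-month arrays all lay above the 6-month arrays, where 12.3% of all probe sets did so. Trem2, a lipid receptor of macrophages, was the only uncalled member, at -0.02. Mpeg1, a pore-forming protein of phagosomes, went from 7.73, 7.95 and 7.71 to 4.85, 5.43 and 5.85, 5.36-fold lower. The 3-month arrays were tight, and the 6-month arrays spread more widely, all of them below. Fcer1g, the shared signalling chain of Fc receptors, went from 9.69, 9.90 and 9.49 to 7.34, 7.49 and 7.94, a difference of -2.11 ± 0.24 (limma adjusted p = 2.73e-10). Laptm5, a lysosomal protein of leukocytes, C1qb, a chain of complement C1q, and the cathepsin Ctss fell too, with differences of -2.03, -1.64 and -1.38. For Mpeg1, Fcer1g, Laptm5, C1qb and Ctss the fall exceeded that in tantalum, with differences between steps from -1.87 to -1.31. In bulk muscle, fewer macrophages and less of their RNA per cell cannot be told apart.

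Other macrophage genes fell in tantalum muscle too. Of the 23, 4 fell in the tantalum step, and its median was -0.23. Cd68, a lysosomal macrophage protein, went from 9.01, 9.43 and 8.55 to 6.83, 6.98 and 7.37 in nickel, a fall of 1.94. In tantalum it went from 8.45, 8.81 and 7.14 to 7.11, 7.08 and 7.13, a fall of 1.03 (limma adjusted p = 0.0435), with the third 3-month array already at the 6-month level. Lyz2, lysozyme, fell by 2.46 in nickel and by 1.63 in tantalum, and Gpnmb by 2.61 and 1.54. Mmp12, the macrophage elastase, went from 7.75, 9.18 and 6.97 to 5.24, 4.67 and 5.18 in nickel. In tantalum it went from 9.19, 10.21 and 5.16 to 4.70, 6.14 and 4.98, again with the third 3-month array low. The steps of Mmp12, -2.94 and -2.91, differed by -0.02 ± 1.01, too wide an error to compare them. Of 14 lysosome and phagosome genes, 9 fell in nickel and 0 rose (median -0.43), among them Lgmn, Grn, Ctsk and Ctsb by between 1.01 and 1.26. Of 6 giant-cell genes 4 fell (Acp5, Ctsk, Mmp12 and Mmp14), and Mmp14 and Ctsk are shared with the matrix and lysosome lists.

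Chemokines and cytokines fell in 14 of 24 members and rose in 0, with a median of -0.63. Of the monocyte attractants, Ccl2 went from 8.72, 9.56 and 8.98 to 6.53, 6.84 and 7.41, 4.47-fold lower, and Ccl3 from 7.86, 8.32 and 7.97 to 5.97, 5.97 and 5.84. Neither overlapped between months. Ccl7, which binds the same receptor as Ccl2, went from 6.97, 7.73 and 7.29 to 5.91, 5.58 and 6.11, while tantalum stayed between 5.20 and 5.58 at both months. The differences between steps were -1.79 for Ccl2, -1.44 for Ccl3 and -1.67 for Ccl7, all called. Il18, an inflammasome cytokine, fell by 1.45, with a difference between steps of -1.90. Its 6-month arrays, 3.45, 3.21 and 3.37, lay below the median of the arrays' control probe sets (4.04 to 4.28), so the size of its fall is limited by background. Cxcl13, the attractant of B cells, had the largest fall of any named gene, a difference of -3.51 ± 0.67, from 9.86, 10.30 and 9.32 to 5.58, 5.64 and 7.73. Replicate 3 at 6 months stood apart from the other 2, and tantalum moved by -1.55 with 1 low array of 3 at 3 months, so the steps were not called as different. Il1rn, the interleukin 1 receptor antagonist, fell by 2.67.

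Antigen presentation by MHC class II fell in 5 of 8 members (median -1.13). Cd74, the invariant chain, went from 10.68, 10.64 and 10.41 to 7.56, 8.77 and 8.40, 5.04-fold lower. The first 6-month array was the lowest, and all 3 were below the 3-month arrays. Cd74 also fell in tantalum, by 0.94, and the steps differed by -1.39 (limma adjusted p = 0.0277). The chains RT1-Da and RT1-Db1 fell by 1.62 and 1.19, with differences between steps of -1.42 and -1.06. RT1-Ba and RT1-Bb also fell, whereas the class II transactivator Ciita was uncalled at -0.35. Of 21 interferon-response genes 8 fell and 0 rose (median -0.46). Mx1, an antiviral GTPase, fell by 1.33, Ifi47, an interferon-gamma GTPase, by 1.14, Gbp2 by 0.82 and the immunoproteasome subunit Psmb9 by 0.68, and these 4 also differed from tantalum.

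Of 17 T, NK and B cell genes 4 fell (Il2rb, Cd4, Klrk1 and Cd8b) and 0 rose, with a median of -0.30. Of the 17, 12 were among the dimmest 30% of probe sets, which limits how far they could fall. The receptor chain Cd3g was at 3.93, 3.94 and 3.74 and then 3.89, 3.97 and 3.65, near the control probe sets at both months, and Cd3e was uncalled at -0.30 ± 0.21. Cd4 is also made by rat macrophages. The pan-leukocyte phosphatase Ptprc, in contrast, fell from 8.34, 8.39 and 7.83 to 5.66, 5.77 and 6.35, and more than in tantalum by 2.07. Il7r, a cytokine receptor of lymphoid cells, fell by 2.30, to levels of 3.37 to 4.02 that lie at the control background.

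**Figure D2:**
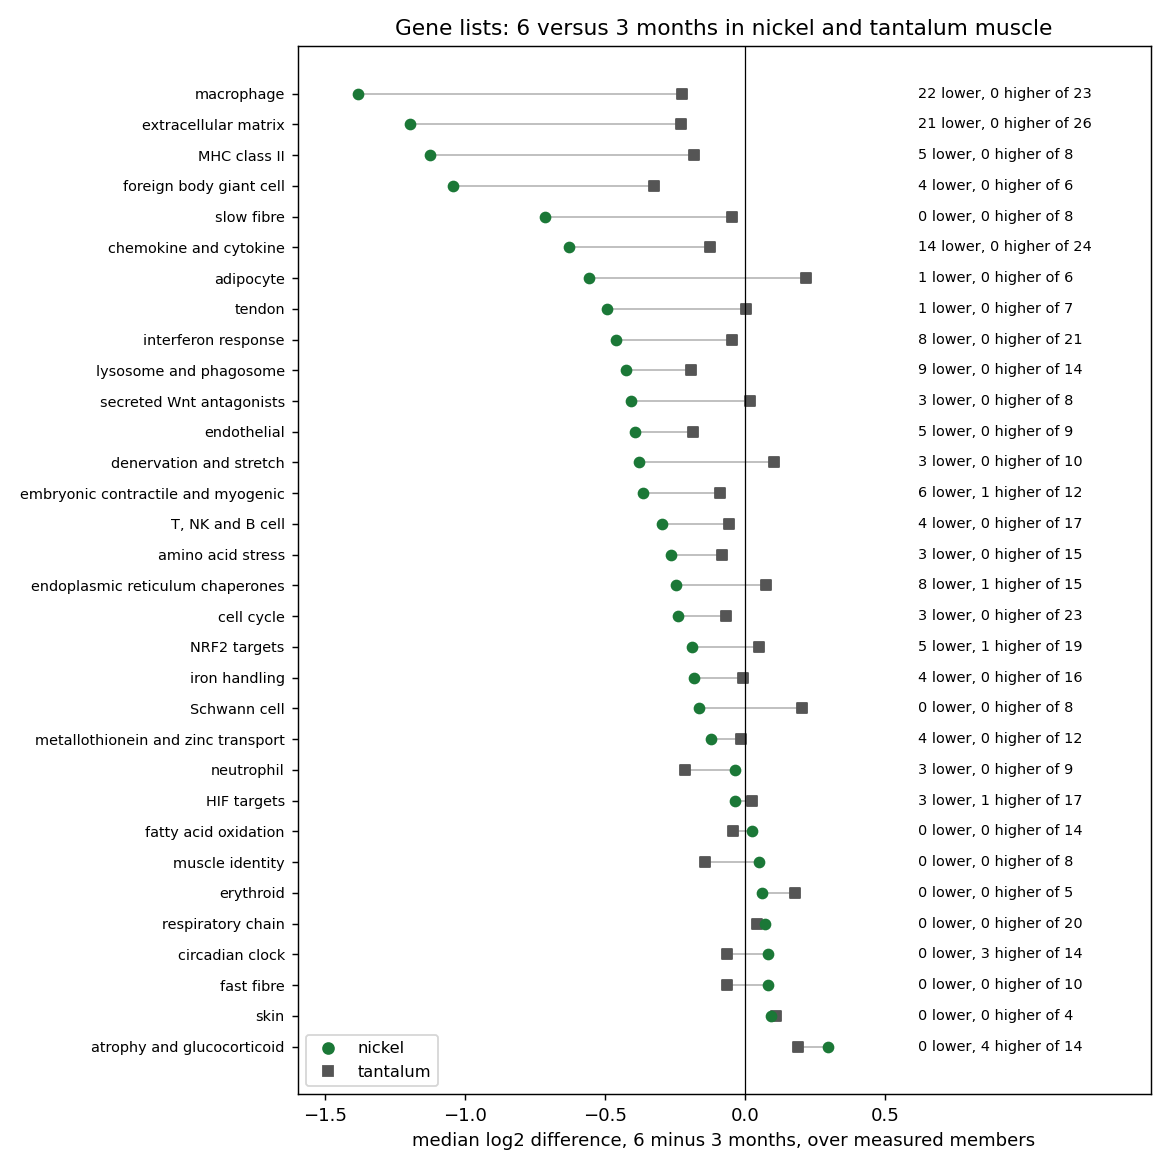
Median log2 difference, 6 minus 3 months, over the measured members of 32 gene lists in nickel (green circles) and tantalum (grey squares), with the number of members lower and higher in nickel at a limma adjusted p below 0.05. Macrophage, matrix and MHC class II genes had the lowest medians in nickel, -1.38, -1.20 and -1.13, and the atrophy and glucocorticoid list the highest, 0.30.

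Extracellular matrix genes fell in 21 of 26 members and rose in 0, with a median of -1.20 against -0.23 in tantalum. For 25 of 26 the 3-month arrays all lay above the 6-month arrays, where 12.3% of all probe sets did so. Thbs1, a matricellular protein that activates TGF-beta, went from 9.13, 9.67 and 9.73 to 6.62, 6.80 and 7.21, 6.2-fold lower (limma adjusted p = 1.03e-12). Fn1, fibronectin, went from 11.42, 11.71 and 11.71 to 9.01, 9.17 and 9.33, 5.44-fold lower. For both genes the gap between months was wider than the spread within either month. Fn1 was the 1 member that also fell in tantalum, by 0.97, and its steps still differed by -1.47 (limma adjusted p = 0.011). The proteoglycan Vcan, named for its difference between steps, went from 8.51, 9.03 and 8.47 to 6.22, 6.38 and 6.79, with 0.02 in tantalum.

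Of the 6 collagens on the list, Col1a1, Col1a2, Col3a1 and Col6a2 fell. Col1a1 went from 11.09, 11.30 and 11.33 to 9.51, 9.45 and 9.48, 3.38-fold lower (limma adjusted p = 1.39e-07) and with tight arrays in both months. The difference from the tantalum step, -1.20 ± 0.36, was not called (limma adjusted p = 0.0604), nor was that of Col3a1, -1.03 (limma adjusted p = 0.0904). The genes whose fall exceeded that in tantalum were 10: the glycoproteins and proteoglycans Thbs1, Thbs2, Fn1, Postn, Bgn and Lum, the proteases Mmp2 and Mmp14 and the protease inhibitors Timp1 and Timp2. Mmp2, a gelatinase, went from 10.09, 10.01 and 9.94 to 8.31, 8.45 and 8.60, with 0.07 in tantalum. Dcn, Col5a1, Col14a1, Mmp9 and Eln were the uncalled members, at between -0.65 and -0.23.

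Secreted Wnt antagonists fell in 3 of 8 members, all of them frizzled-related proteins, while the frizzled-related Sfrp5 and Frzb were uncalled. Sfrp2, a product of activated fibroblasts, went from 9.68, 9.28 and 9.00 to 6.88, 6.76 and 7.87, a difference of -2.15 ± 0.34 (limma adjusted p = 1.93e-06). The 6-month arrays were all lower, with replicate 3 nearest to the 3-month level. Tantalum moved by 0.53 and the steps differed by -2.67 (limma adjusted p = 0.000232). Sfrp4 fell by 1.39 and Sfrp1 by 0.58, and neither was called as different from tantalum.

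The embryonic contractile and myogenic list had 6 of 12 members lower and 1 higher, with a median of -0.37. Tnnt2, the cardiac troponin T that is made in immature skeletal fibres, stood at 8.22, 8.31 and 8.86 at 3 months and 6.26, 6.12 and 6.10 at 6 months. The 6-month arrays were nearly identical and far below, 4.93-fold lower (limma adjusted p = 4.74e-12), and tantalum moved by 0.23. Actc1, cardiac alpha-actin, went from 11.32, 10.87 and 11.02 to 8.95, 8.49 and 8.66, a difference of -2.37 ± 0.35. Myh3, embryonic myosin heavy chain, went from 10.89, 10.29 and 10.82 to 8.94, 8.56 and 8.51, 4-fold lower. Myl4, the embryonic and atrial light chain, and Myf5, a determination factor of myoblasts, fell by 1.53 and 1.51. These 5 also fell more than in tantalum, with differences between steps from -2.53 to -1.17, and Igf2 fell by 0.57.

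The other members of the list were not called, apart from Myf6. Myh8, perinatal myosin, held 8.75, 8.58 and 8.82 and then 8.53, 8.47 and 8.64, an uncalled difference of -0.17 ± 0.15 with overlapping arrays. Myod1, Myog, Pax7, which marks satellite cells, and Cdh15 were uncalled, at between -0.13 and -0.03. Myf6, a regulator of mature fibres, rose by 0.54 in nickel and by 0.41 in tantalum. The E-box CAGCTG, searched as it stands since it reads the same on both strands, was in 2 of 13 promoters of the list (15.4%), those of Tnnt2 and Myl4, and in 4007 of all promoters (12%).

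Fibre-type genes are given beside this. The 8 slow-fibre genes had a median of -0.72 in nickel and -0.05 in tantalum, and all 8 estimates in nickel were below 0. Of these genes 0 passed, but 4 passed with array weights, 4 without nickel 3-month replicate 3, 2 without nickel 6-month replicate 1 and 1 with only the compared arrays. Myh7, the slow myosin heavy chain, held 13.04, 12.78 and 12.25 and then 12.50, 11.73 and 11.75, with the first 6-month array inside the 3-month range. The mean over these 8 genes ranged from 11.50 to 12.47 at 3 months and from 11.05 to 11.74 at 6 months. The 10 fast-fibre genes had a median of 0.08, and 0 of them and 0 of 8 general muscle genes passed. Whether a different share of slow fibres in the pools bears on the genes above was not tested. Of 10 denervation and stretch genes, 3 fell: the acetylcholine receptor subunits Chrna1, by 1.45, and Chrnd, by 0.92, and the factor Runx1, by 0.72, with 0 called as different from tantalum.

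Of 15 endoplasmic reticulum chaperones and partners, 8 fell and 1 rose, with a median of -0.25. Pdia4, a disulfide isomerase, went from 9.23, 9.00 and 8.49 to 7.83, 7.73 and 7.89, 2.13-fold lower (limma adjusted p = 1.42e-09). It was unlike tantalum, which moved by 0.33, and the difference between steps was -1.42 ± 0.19 (limma adjusted p = 2.25e-07). Hspa5, the master chaperone, went from 11.14, 11.20 and 11.00 to 10.58, 10.63 and 10.68, a fall of 0.49 that exceeded tantalum by 0.57. Pdia3 and Hsp90b1 fell by 0.68 and 0.63 and also differed from tantalum. In the amino acid stress list, 3 of 15 fell, Asns, Slc7a5 and Nupr1. Asns, asparagine synthetase, went from 7.62, 6.56 and 6.41 to 4.92, 4.99 and 5.51, with replicate 1 the highest at 3 months and no overlap. Its step of -1.73 ± 0.23 stood against 0.41 in tantalum, a difference of -2.14 (limma adjusted p = 4.48e-06). Atf4, Ddit3 and Trib3, the factors of that pathway, were uncalled, at between -0.04 and 0.13.

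HIF targets fell in 3 of 17 members and rose in 1, with a median of -0.03 at the level of all probe sets. Slc2a1, the glucose transporter GLUT1, went from 8.57, 9.12 and 8.81 to 6.96, 7.21 and 6.88, 3.52-fold lower (limma adjusted p = 1.75e-15). The months lay wide apart. The step exceeded that of tantalum by 1.32. Ndrg1 and Ero1a, an oxidase of the endoplasmic reticulum, fell by 1.17 and 1.01 and also exceeded tantalum, by 0.97 and 0.82. Pfkfb3, an activator of glycolysis, went the other way, from 8.30, 8.28 and 8.60 to 9.15, 9.24 and 9.79. Among 23 cell cycle genes 3 fell, Mki67 by 1.41, Ccna2 by 0.81 and Mcm3 by 0.61, with a median of -0.24. Of 20 respiratory chain and 14 fatty acid oxidation genes, 0 passed in limma.

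Rises were smaller than falls. The 3 largest among named genes whose months did not overlap had estimates of like size in tantalum. Ostn, the muscle-secreted peptide osteocrin, went from 9.10, 9.23 and 9.04 to 10.29, 10.56 and 10.59 in nickel, 2.56-fold higher (limma adjusted p = 0.00885). Tantalum rose alongside, from 9.13, 9.15 and 8.73 to 9.62, 10.48 and 10.63, a difference of 1.24 that did not pass (limma adjusted p = 0.0664). Hook1 rose by 1.30 in nickel and by 1.18 in tantalum, and Tmem196 by 1.18 and 1.39. Of the 12 genes with the largest rises without overlap, the others were Ubxn10, Or5p66b, Cst7, Iqcg, Asb4, Pfkfb3, Gadd45g, Spa17 and Slc16a4, between 0.92 and 1.18. Atrophy and glucocorticoid genes rose in 4 of 14 members and fell in 0 (median 0.30, and 0.19 in tantalum). The ubiquitin ligase Trim63 rose by 0.35, the glucocorticoid-induced Tsc22d3 by 0.38, glutamine synthetase Glul by 0.50 and the growth inhibitor Mstn by 0.69. Of 14 clock genes 3 rose, Bmal1 by 0.52, Cry1 by 0.59 and Bhlhe40 by 0.34. The difference from tantalum was called for 0 of these 7 atrophy and clock genes.

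Set side by side, the nickel and tantalum steps share no arrays. Both lowered 67 probe sets, 4.84% of the nickel falls and 32.7% of the tantalum falls, and both raised 58, 6.61% and 45% of the rises, and 0 probe sets that fell in nickel rose in tantalum. Some differences between steps were called where the larger movement was in tantalum. Cdkn1a, a cell cycle inhibitor, held 8.80, 8.73 and 8.17 and then 8.22, 8.36 and 8.45 in nickel, with overlapping arrays. In tantalum it rose from 7.14, 7.11 and 6.98 to 8.60, 7.98 and 8.39, which gave a difference between steps of -1.47 (limma adjusted p = 0.0015). Nr1d1, a clock repressor, was uncalled in nickel at 0.12 and fell by 0.96 in tantalum.

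**Figure D3:**
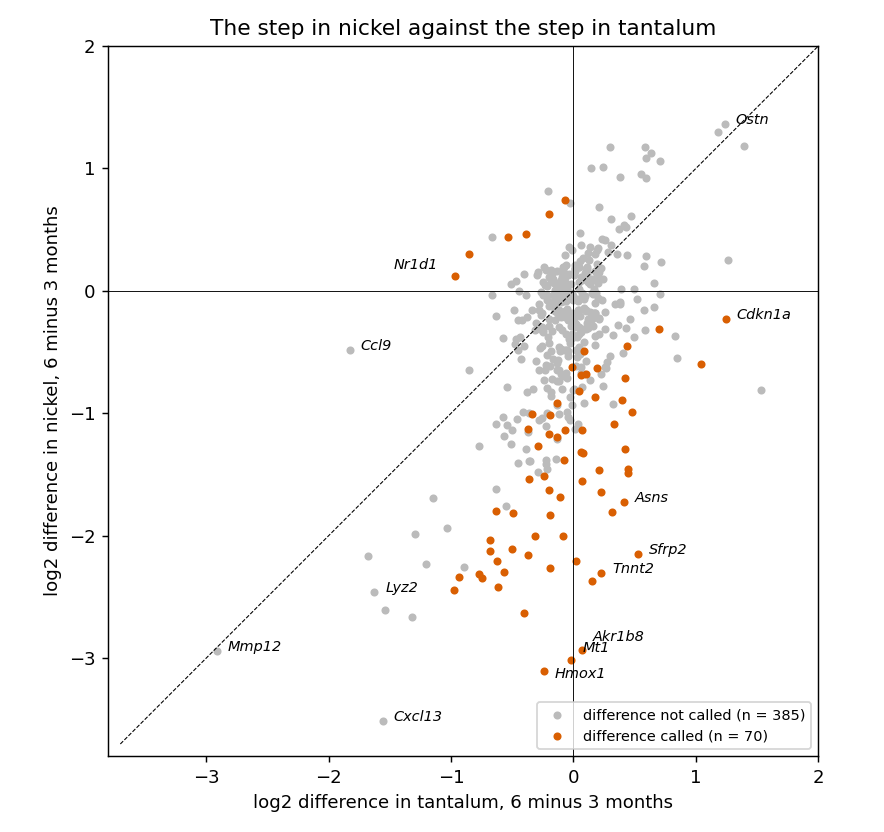
Log2 difference, 6 minus 3 months, in nickel (y axis) against tantalum (x axis) for the 455 genes of the lists and naming rules. Orange points are the 70 genes whose steps differed at a limma adjusted p below 0.05; Hmox1, Mt1 and Akr1b8 lie near 0 in tantalum and near -3 in nickel, while Mmp12 lies on the dashed line of equal steps.

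Nickel and tantalum were compared directly at 6 months. In that comparison 0 of 22954 probe sets (0%) passed in limma, with 1365 at an unadjusted p below 0.05 and a smallest adjusted p of 0.0511. With the replicate number as a block within month, which pairs the 6-month arrays of both metals, 1 probe set without a gene symbol passed, 0.77 higher in nickel (limma adjusted p = 0.0427). Adjusted over all 7 comparisons together, 61 passed, 35 higher and 26 lower in nickel. The 346 probe sets that had fallen at least 2-fold lay between -0.85 and 0.48 from tantalum, with a median of -0.12. They were chosen in part for low values in the same 6-month nickel arrays, which draws these differences downwards. This also applies to genes named for their fall. For Hmox1 the 6-month difference was 0.44, with a 95% interval of -0.17 to 1.05, and for Mt1 it was 0.10 (-0.39 to 0.58). For Tnnt2 it was 0.13 (-0.34 to 0.60) and for Fcer1g -0.01 (-0.49 to 0.48). The interval of Hmox1 reaches past 2-fold, so equal levels were not shown. The intervals of Mmp2 (-0.90 to -0.13), Asns (-0.98 to -0.09) and Pdia4 (-0.60 to -0.07) lay below 0 without adjustment over probe sets, and that of Myl4 (0.05 to 0.91) above it.

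The probe sets that nickel had raised over tantalum at 3 months were followed in the other arrays. Of 784 called at 3 months (3.42%), 647 were higher in nickel (2.82%). Their median difference from tantalum was 0.33 at 1 month, 0.78 at 3 months, where they were chosen, and -0.07 at 6 months. At 1 month 596 of them (92.1%) were above 0, against 50.6% of all probe sets. At 6 months 220 (34%) were, against 50.4% of all probe sets. Above a difference of 1 there were 48 at 1 month, 190 at 3 months and 0 at 6 months. Over all 22954 probe sets these counts were 57, 194 and also 0, so the 0 is not particular to this set. The 137 lowered at 3 months had medians of -0.15, -0.45 and -0.03. The choice of set depends on single arrays: without nickel 3-month replicate 1 or 2, or tantalum 3-month replicate 3, 419, 438 or 485 probe sets passed at 3 months in place of 784. With only the compared arrays 351 passed, with the replicate block within month 1259 and with array weights 1445. The block within metal gave 249, but that fit compared the metals at the level of replicate 1, not between group means.

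**Figure D4:**
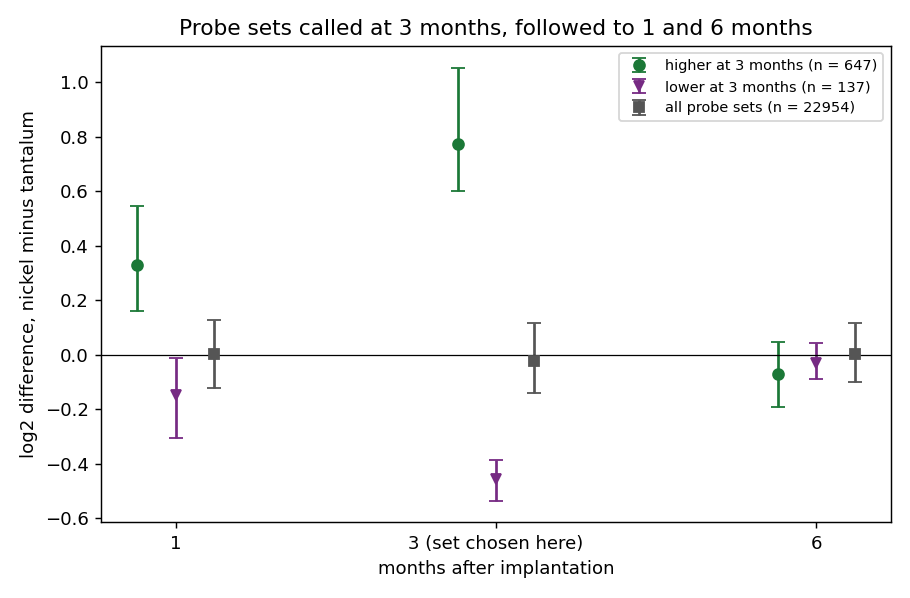
Log2 difference, nickel minus tantalum (y axis), at 1, 3 and 6 months for the probe sets higher (green) or lower (purple) at 3 months and for all probe sets (grey); points are medians and bars quartiles over probe sets. The raised set moved from a median of 0.78 at 3 months, where it was chosen, to -0.07 at 6 months, with quartiles of -0.19 and 0.05.

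The 6-month arrays were also set beside those of the first month. From 1 to 6 months, in a comparison that uses the same 6-month arrays, 1641 probe sets passed (7.15%), 1053 of them lower (4.59%) and 588 higher (2.56%). Of the 26 matrix genes 23 fell over that interval. Col1a1 began at 12.03, 12.00 and 11.85 at 1 month, above its 3-month arrays, and its 6 minus 1 month difference was -2.47 (limma adjusted p = 3.38e-11), with -2.03 for Col3a1. Hmox1 held 6.76, 9.10 and 9.16 at 1 month and Mt1 8.18, 9.96 and 9.88, so replicate 1 was the low array for both. The differences to 6 months were -2.17 for Hmox1, which lost its call under 1 alternative (limma adjusted p = 0.0669), and -2.01 for Mt1. Tnnt2, at 6.23, 7.74 and 7.00 at 1 month, overlapped its 6-month arrays and differed by -0.83 (limma adjusted p = 0.0165). The count of calls was 912 without nickel 1-month replicate 3 and 1043 without replicate 2.

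Cobalt was the other metal with a step of this size in a count over all metals added after the data were seen. Its 6 versus 3 month step, in 3 arrays per month, had 3019 calls, aluminum had 1334, and the other metals between 58 and 760. The 1383 probe sets lower in nickel, which were chosen on the nickel arrays, had a median of -0.67 in cobalt and of -0.24 to -0.08 in the other 7 metals. Hmox1 held 9.29, 10.04 and 10.04 and then 6.48, 5.78 and 5.92 in cobalt, a step not called as different from that in nickel. The steps of Akr1b8 differed by -0.08 ± 0.45 (SE), an error too wide to call them equal. The steps of nickel and cobalt differed for 236 probe sets (1.03%), 207 less negative or more positive in nickel (0.902%) and 29 more negative (0.126%).

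Among the 29 that were more negative in nickel were Mt1, embryonic contractile genes and Thbs1. Mt1 held 8.46, 8.45 and 8.84 and then 7.31, 7.42 and 7.33 in cobalt, so the nickel step was larger by 1.78 on the log2 scale (difference -1.78, limma adjusted p = 5e-04). Tnnt2 held 6.20, 6.54 and 6.80 and then 5.86, 6.09 and 6.18 in cobalt, a difference of -1.83, and Myh3, Myf5 and Thbs1 differed by -1.58, -1.42 and -1.60. Myf5 lost that call under some alternatives, with limma adjusted p-values of up to 0.0793. Of the 17 T, NK and B cell genes, 12 fell more in cobalt, with a median difference of 1.38 over the list. Cr2, a complement receptor of B cells, held 7.08, 6.72 and 6.67 and then 3.61, 3.74 and 3.76 in cobalt, against 3.94, 3.94 and 4.08 and then 4.25, 4.12 and 3.80 in nickel, where it stayed at background. Cd3g, the NK receptor Klrk1 and the T cell attractant Cxcl9 differed by 2.44, 2.52 and 3.02. The differences of Cr2 and Cd3g are limited by the background, since both lay near the control probe sets in nickel at both months and in cobalt at 6 months. Ptprc, at 9.94, 9.84 and 10.16 and then 5.81, 5.39 and 5.69 in cobalt, fell more there by 2.09, and the 2 steps started from different 3-month levels.

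**Figure D5:**
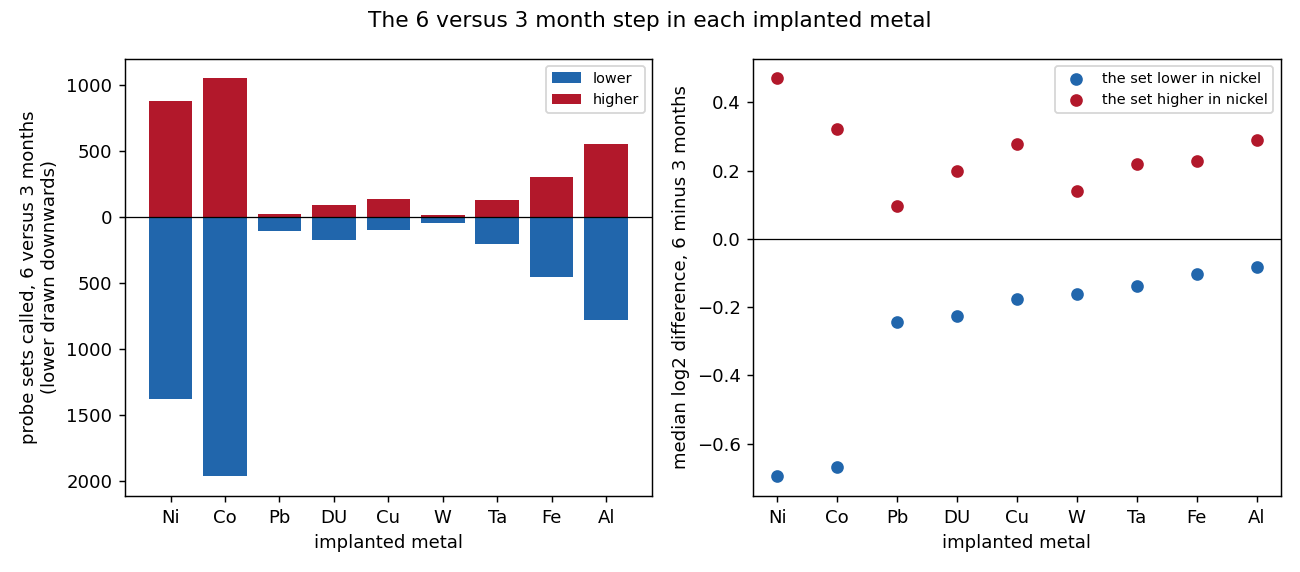
Left, probe sets called in the 6 versus 3 month step of each implanted metal, higher drawn upwards and lower downwards; right, median log2 difference in each metal of the probe sets lower (blue) and higher (red) in nickel, which were chosen on nickel. Metals are Ni nickel, Co cobalt, Pb lead, DU depleted uranium, Cu copper, W tungsten, Ta tantalum, Fe iron and Al aluminum. The lower set had its lowest medians in nickel and cobalt, -0.70 and -0.67.

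Markers of other cell types moved as follows. Of 9 endothelial genes 5 fell in nickel (Pecam1, Cdh5, Tie1, Vwf and Emcn, between -0.80 and -0.39). The mean over the 9 was 8.08 to 8.16 at 3 months and 7.66 to 7.76 at 6 months. The list median was -0.39 in nickel and -0.19 in tantalum, and 0 of the 9 were called as different from the tantalum step. Of 9 neutrophil genes 3 fell (S100a9, Csf3r and Lcn2), and S100a8, Elane, Cxcr2, Ngp, Camp and Ltf were uncalled. The list median was -0.04, with 5 of the 9 estimates below 0. Of 6 adipocyte genes 1 fell (Cfd), and their mean was 7.35 to 8.10 at 3 months and 6.80 to 7.32 at 6 months. Of 7 tendon genes 1 fell (Thbs4), with means of 7.51 to 8.06 and 7.15 to 7.60. Of the 9 neutrophil and 7 tendon genes 0 were called as different from the tantalum step, and of the 6 adipocyte genes 1 was. Of 8 Schwann cell, 5 erythroid and 4 skin genes, 0 passed. The part of these cells in the results was not tested. The tissue label held: the mean over 8 general muscle genes was 12.60 to 12.75 at 3 months and 12.62 to 12.69 at 6 months, far above the control probe sets. Array medians of the 6 nickel arrays lay between 6.43 and 6.52, between 88.9% and 93% of their probe sets were above the control median, and arrays of one month correlated at 0.989 to 0.99 at 3 months and 0.986 to 0.989 at 6 months.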

How the data were processed

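Gastrocnemius RNA was measured on Clariom S Rat arrays, 1 array per pool of 2 to 3 rats (250 ng of RNA), per the labels. The authors deposited log2 values made by RMA with oligo under R 4.0.1, per the submitters' processing notes. RMA quantile-normalizes arrays, so a shift of most genes would be removed. Of 22977 probe sets, 23 controls were left out and the other 22954 were all tested, dim ones included. Symbols came from a RefSeq gene table (GRCr8) matched on gene ID, which named 14855 probe sets and left 8099 unnamed here, and for 3 genes on 2 probe sets the brighter was used. The number of arrays limits the precision.

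limma 3.58.1 under R 4.3.3 (lmFit, eBayes) was fitted to all arrays of the series with 1 mean for each of 35 groups (70 residual and 7.25 prior degrees of freedom). The 7 comparisons used two-sided tests and a Benjamini-Hochberg adjusted p (over all probe sets) below 0.05. Intervals are 95% and unadjusted. The fit was tested on simulated data. The groups, members, 32 lists and tests were chosen with earlier results of these data known, and lists are described by counts and medians only. Named genes are the 20 lowest and 12 highest called changes of the nickel step whose months did not overlap, the 10 lowest and 6 highest of each difference between steps, the 5 lowest and 5 highest of the tantalum step and of 6 against 1 month, and all list members. Others named, such as Cdkn1a in nickel, were chosen after their values were seen.

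Replicate numbers were checked for pairing by correlating deviations from group means. Nickel and tantalum arrays of one number at 6 months correlated at 0.129, 0.177 and 0.24, so a block within month is given there. Between the nickel months the values were 0.0707, 0.0468 and 0.0815, and between the tantalum months 0.0849, 0.157 and 0.0671. Nickel and tantalum at 3 months gave 0.0455, 0.0822 and 0.0987. In each of these cases arrays correlated best with the array of the same number. Between the cobalt months, at -0.029, 0.0644 and 0.0347, that did not hold throughout. Numbers were not taken as pairs in the main fit, and a replicate block is given as an alternative. Alternatives were a replicate block; array weights; repeated quantile normalization; robust eBayes with a trend on intensity; omitting the 30% dimmest probe sets; fitting only the compared arrays; adjusting over all comparisons; taking the other metals as reference; and omitting each array in turn.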

Additional observations from a re-analysis of the deposited data

Results flagged for a closer look

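The results in this group differ between metals by a test of the difference between 6 versus 3 month steps (limma adjusted p below 0.05, 3 arrays per group). Nickel and tantalum steps differed for 389 probe sets. The most negative log2 differences, nickel step minus tantalum step, were Akr1b8 -3.01, Mt1 -3.00, Hmox1 -2.86, Sfrp2 -2.67, Tnnt2 -2.53, Actc1 -2.52, Thbs1 -2.23, Vcan -2.22, Asns -2.14 and Serpina3n -2.12, in all of which the nickel level fell. The most positive were Vom2r59 1.16, Nr1d1 1.09, Tbx4 0.97, Adh6 0.85, Pde6a 0.83 and Gpld1 0.81. Of these 16, Serpina3n, Vom2r59, Tbx4, Adh6, Pde6a and Gpld1 lost their call under at least 1 alternative.

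Nickel and cobalt steps differed for 236 probe sets. The most negative differences, nickel step minus cobalt step, were Tnnt2 -1.83, Mt1 -1.78, Thbs1 -1.60, Myh3 -1.58, Myf5 -1.42, Or5p73 -1.30, Cxcl2 -1.16, Or14j3 -1.15, Fndc3c1 -1.11 and Vill -0.99. The most positive were Cr2 3.19, Cxcl9 3.02, Ubd 2.91, Klrk1 2.52, Klrb1c 2.50 and Cd3g 2.44. Ubd, a ubiquitin-like protein induced by interferon gamma and tumour necrosis factor, was higher by 1.17 at 6 months in nickel (limma adjusted p = 0.0405), with overlapping arrays at 4.89, 5.00 and 3.60 and then 5.54, 6.94 and 4.53. In cobalt it held 6.93, 8.20 and 7.16 and then 5.81, 5.19 and 6.08. Of these 16, Myf5, Or5p73, Cxcl2, Or14j3, Fndc3c1, Vill and Ubd lost their call under at least 1 alternative.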

How the results depend on the processing

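Every called change of a rule-named gene kept its direction under every alternative that tested it. The nickel step gave 2261 calls, 1224 with only the compared arrays, and 1419 to 2221 without single arrays. A replicate block within metal gave 2511. The tantalum step (334) gave 580 with array weights, 507 adjusted over all comparisons, 0 with only the compared arrays (3303 probe sets had an unadjusted p below 0.05 in limma over all arrays) and 43 to 248 without single arrays, and all 10 of its named genes lost their call somewhere. The difference between nickel and tantalum steps (389) gave 234 with only the compared arrays, 407 and 540 with a replicate block within metal and within month, and 224 to 459 without single arrays. That between nickel and cobalt steps (236) gave 149 without the dimmest probe sets, where 16068 were tested. It gave 250 with a replicate block and 186 to 232 without single arrays. Nickel against tantalum at 6 months (0) gave 1 with the replicate block within month, 61 adjusted over all comparisons and 0 without any single array. At 3 months (784) the block within metal gave 249, but for metals compared at the level of replicate 1, not between group means. The other counts there were 1259 with the block within month, 1445 with array weights and 351 with only the compared arrays. Without single arrays they ran from 419 to 935. From 1 to 6 months (1641) the counts were 450 with only the compared arrays, 1856 with the block and 912 to 1653 without single arrays. Hmox1 and Ostn lost their call under 1 alternative each. Macrophage falls ranged from 19 to 22, matrix falls from 19 to 21, chemokine falls from 10 to 14 and slow-fibre falls from 0 to 4. The macrophage low of 19 was in the run without the dimmest probe sets, which left out 3 of the 23 members. The cause of the other moves was not tested. Levels near the control probe sets (Il18, Il7r, Slc7a11 and Cxcl11 at 6 months, Cd3g and Cr2 in nickel and in cobalt at 6 months) limit the size of a difference.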
